A study of Mus musculus with 18 samples.

Results

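The genes described here are those on the 12 mouse autosomes (1, 2, 3, 5, 6, 7, 11, 13, 16, 17, 18 and 19 of GRCm38) chosen as having even expression by position in IκBα-WT and IκBα-KO mouse embryonic stem cells (mESCs). They make up 33303 of the 55487 genes of the count table, and 13795 of them were tested, having reached 10 counts when the 6 libraries were summed. The chromosomes were selected on the median expression by position in these same libraries, so their evenness is given as a description with no test, whereas the difference of any single gene was not used to choose them. Genes of autosomes 4, 8, 9, 10, 12, 14 and 15 and of the sex chromosomes were set aside.

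All libraries came from the ES-E14TG2a line, a mESC line kept on gelatin in medium with serum and leukemia inhibitory factor (Serum/LIF), and were collected at 0 h, before any differentiation. WT clones (genotype IkappBalpha+/+) had received non-targeting scrambled guides. KO clones had been made by CRISPR-Cas9 with a pair of guides in the first exon of Nfkbia, the gene of IκBα, and were grown from single sorted cells and screened for loss of the protein. Each genotype was represented by 3 clones, each library is 1 clone, and total counts ran from 29423089 to 40904247.

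IκBα holds NF-κB transcription factors in the cytoplasm until a stimulus leads to its degradation. mESCs in Serum/LIF are a pluripotent population in which many genes of the germline are kept low by DNA methylation and repressive chromatin, and in which imprinted genes are read from 1 parental copy according to marks set in the germ cells. The functions of the genes that differed between the genotypes are described below without regard to whether NF-κB is known to act on them.

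The labels and the cell type were checked first. Nfkbia, which lies on chromosome 12 and so outside the autosomes analysed, stood at 34.3, 34.8 and 25.0 CPM (counts scaled to the library's size by the TMM method) in WT clones 1 to 3 and at 10.2, 9.25 and 10.1 in the KO clones. The summed CPM of 25 pluripotency genes was 8010 to 8700 in WT and 8750 to 9210 in KO clones, and 0 of the 15 of them on the analysed autosomes was called by edgeR or DESeq2, with 4 at an unadjusted p under 0.05. Summed markers of fibroblasts ran from 134 to 167 in WT and from 145 to 215 in KO, those of trophoblast from 95.0 to 103 and from 92.4 to 107, those of neuroectoderm from 301 to 358 and from 270 to 303, and those of mesoderm and primitive streak from 67.8 to 114 and from 100.0 to 143. Primitive and visceral endoderm markers summed to 397 to 430 CPM in WT and 508 to 633 in KO clones, without overlap, and are given gene by gene below. In bulk RNA, fewer cells of a type and less RNA per cell cannot be told apart.

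On the analysed autosomes, the median log2 difference from the WT mean over genes averaging 50 counts or more reached at most 0.0586 in size in any KO clone, on chromosome 3 in KO clone 2. Among the autosomes set aside, the median was -0.074 on chromosome 4, -0.168 on chromosome 14 and -0.187 on chromosome 9 in KO clone 2, and between 0.258 and 0.484 on chromosome 8 in the KO clones. The largest chromosome medians in KO clone 2 were 0.513 on chromosome 15 and -0.400 on chromosome 12. On chromosome 12 the medians of KO clones 1 and 3 were only -0.019 and -0.067. Its 10 Mb window starting at 110000001, however, was at -0.939 and -1.04 in these 2 clones, beside -0.372 in KO clone 2. Chromosome 10 had medians between -0.0023 and 0.0136 in the KO clones and would have been kept by this measure, but held a window of 10 Mb at -0.323 in KO clone 2. Evenness was not complete within the kept chromosomes, since the largest window median among 154 windows was 0.266 in size in KO clone 2, 0.194 in KO clone 1 and 0.152 in KO clone 3, against at most 0.108 in a WT clone. On the autosomes set aside, 42 of 86 windows passed 0.3 in size in at least 1 clone.

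**Figure D1:**
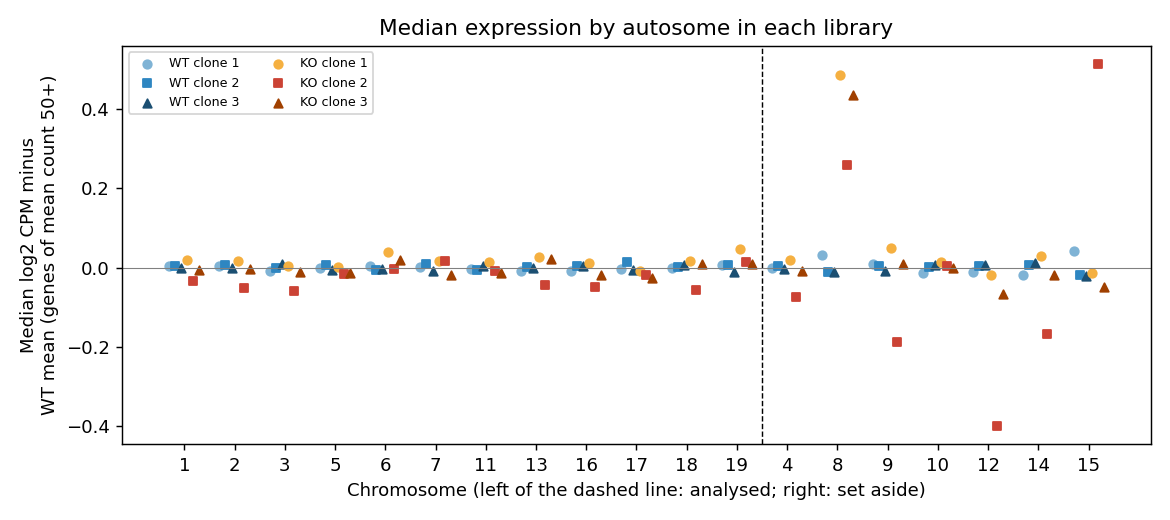
Median log2 CPM minus the WT mean (vertical axis) by autosome (horizontal axis) in each of the 6 libraries, over genes averaging 50 counts or more. To the left of the dashed line, the 12 analysed autosomes lie within 0.0586 of 0 in every KO clone, and to the right are the 7 set aside.

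The KO clones were not equally alike. On the analysed autosomes the SD over genes of the log2 difference between 2 clones was 0.229 for KO clones 1 and 3, 0.461 for KO clones 1 and 2 and 0.472 for KO clones 2 and 3, and 0.201 to 0.269 for the pairs of WT clones. KO clone 2 thus stood apart from the other KO clones by more than any WT clone from another. The labels do not say whether KO clones 1 and 3 had a common origin after the editing.

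Of the 13795 genes tested, 112 were called higher and 91 lower in KO clones, meaning that they differed by more than 2-fold at an adjusted p under 0.05 (edgeR quasi-likelihood test, Benjamini-Hochberg over all 21843 genes of the fit). These were 0.812% and 0.66% of the genes tested on these autosomes, or 1.47% in both directions, beside 1.06% higher and 0.641% lower over all genes tested. Without the fold threshold 295 were higher (2.14%) and 229 lower (1.66%), 3.8% in all, against 3.09% and 1.69% over all genes tested. Of the called genes 179 code for proteins, 97 of them higher, and 12 are long intergenic non-coding RNAs. In all 203 the WT and KO clones did not overlap, as was also true of 28.3% of all genes tested. The called genes were spread over the 12 autosomes, from 0.752% of the genes tested on chromosome 17 to 2.9% on chromosome 18.

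The calls rested on few clones. With WT clone 2 left out 0 genes were called by edgeR, the only tool run on this subset, although 1808 had an unadjusted p under 0.05. In that fit the edgeR adjusted p was 0.0594 for H19, Mest, Acta2 and Hormad1, close to the threshold, and 0.217 for Crxos. Without WT clone 3 only 10 genes were called. They were Dnajc5g, H19, Hnf4a, Hormad1, Slc1a1 and Zfp264 among those higher in KO and Acta2, Fgf5, Fign and Grb10 among those lower. Without KO clone 2, the clone that stood apart, 268 genes were higher and 221 lower. With the counts of KO clones 1 and 3 summed as 1 sample, 58 were higher and 26 lower. WT clone 3 had the highest WT value in 77 of the 91 genes called lower (84.6%), beside 35.1% of all genes tested, and the lowest in 63 of the 112 called higher (56.2%), beside 34.7%. WT clone 1 lay nearest to the KO clones. It had the lowest WT value in 60 of the 91 genes called lower (65.9%, beside 33.9% of all genes tested). The highest WT value was its own in 75 of the 112 called higher (67.0%, beside 34.9%).

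**Figure D2:**
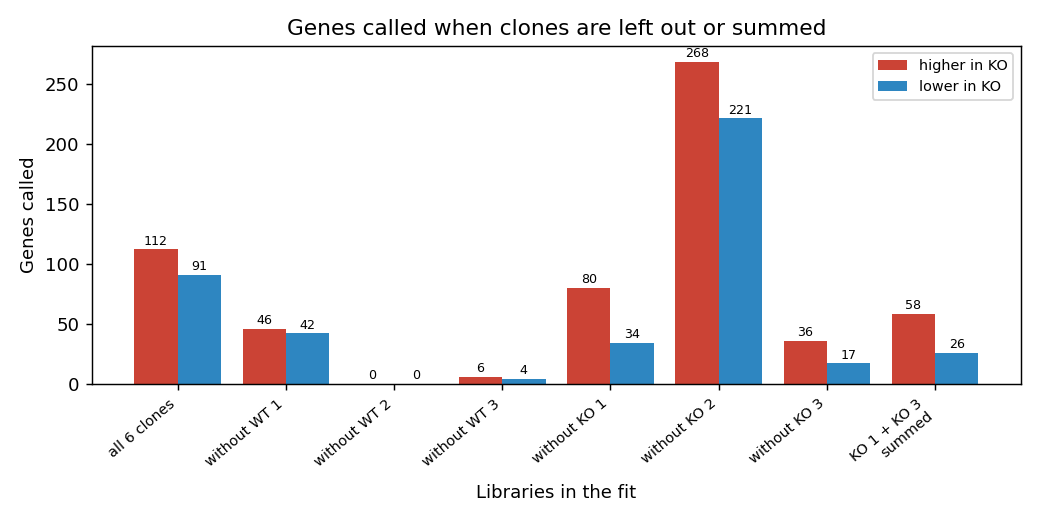
Number of genes called higher (red) and lower (blue) in KO clones (vertical axis) for the fit with all 6 clones, for the fits with 1 clone left out and for the fit with KO clones 1 and 3 summed (horizontal axis). The counts run from 0 and 0 without WT clone 2 to 268 and 221 without KO clone 2.

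Germline genes that were called on the list for them were all higher in KO clones. Of 27 germline genes tested 4 were called (14.8%, beside 1.47% of all genes tested in both directions), 4 more (Stag3, Tex14, Meioc and Dazl) rose by less than 2-fold and 0 passed the adjusted p as lower, and the median log2 fold change of the list was 0.409 beside 0.0081 over all tested genes of these autosomes. With WT clone 2, WT clone 3 or KO clone 2 left out, 0, 1 and 5 of the list were called, beside 0, 10 and 489 of all 13795 genes tested. The list, like the others below, was drawn up with earlier results of these data known.

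Hormad1 and Fkbp6 were the germline genes of the list with the lowest adjusted p, and their promoters are shown because both hold the same short motif more than once. The 250 bases before the start of each gene are printed 5′ to 3′ on the gene's strand from RefSeq (GRCm38.p6), at chr3:95559427-95559676 (plus strand) for Hormad1 and chr5:135350045-135350294 (minus strand) for Fkbp6, with the motif CACGTG in capitals.
Hormad1: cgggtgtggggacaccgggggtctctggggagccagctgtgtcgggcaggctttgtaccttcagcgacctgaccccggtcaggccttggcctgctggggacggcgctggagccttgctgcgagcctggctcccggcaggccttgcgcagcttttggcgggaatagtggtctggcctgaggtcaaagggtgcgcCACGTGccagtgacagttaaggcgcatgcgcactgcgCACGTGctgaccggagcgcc
Fkbp6: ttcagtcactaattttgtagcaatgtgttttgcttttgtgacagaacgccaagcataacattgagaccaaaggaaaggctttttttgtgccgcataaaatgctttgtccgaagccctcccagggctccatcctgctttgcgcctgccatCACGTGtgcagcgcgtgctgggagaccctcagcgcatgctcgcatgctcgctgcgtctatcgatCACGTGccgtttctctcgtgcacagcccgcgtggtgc
CACGTG reads the same on both strands, and it was found 2 times in each of these windows. It was found in 6.05% of the 27025 RefSeq promoters searched over the same 250 bases and in 7.91% of those of the tested genes on these autosomes, and at least 2 times in 0.448% of all promoters. Among the called genes with a promoter in the table it was in 8 of 83 of those higher (9.64%) and in 3 of 59 of those lower (5.08%). No copy overlapped another motif searched, and a match is a description of the letters only.

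Hormad1 encodes a protein of the meiotic chromosome axis that helps to monitor pairing of the chromosomes. It stood at 28.8, 31.2 and 24.7 CPM in WT clones 1 to 3 and at 71.2, 66.2 and 88.1 in KO clones 1 to 3. Every KO clone was thus more than 2 times as high as every WT clone, and the log2 fold change was 1.41 ± 0.13 (SE, edgeR adjusted p = 0.00498). Leaving out a clone kept its adjusted p under 0.05 in 5 of 6 fits. Fkbp6, a co-chaperone needed in the male germline for silencing of transposable elements, had 216, 234 and 192 raw counts in WT and 650, 665 and 1006 in KO clones (log2 fold change 1.56 ± 0.20, edgeR adjusted p = 0.00845). Hormad2, which acts in meiosis beside Hormad1, was at 7.69, 4.75 and 5.06 CPM in WT clones and at 12.3, 25.4 and 12.9 in KO clones, with its highest value in KO clone 2. For Majin, which anchors telomeres to the nuclear envelope in meiosis, the values were 1.77, 1.66 and 1.44 CPM in WT and 3.79, 5.67 and 3.46 in KO clones (1.41 ± 0.24, edgeR adjusted p = 0.02).

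Stag3, a meiotic cohesin subunit that passed the test below the fold threshold, stood at 117.6, 109.7 and 85.0 CPM in WT and 199.5, 177.8 and 184.1 in KO clones (0.85 ± 0.12, edgeR adjusted p = 0.0107). Other called genes with germline or early embryo roles lie outside that list, and of those given next Nlrp4f and Rbm46 were picked after their values were seen. Nlrp4f, a member of an oocyte-expressed NLRP subfamily, was at 11.3, 10.2 and 6.79 CPM in WT and 23.9, 40.8 and 33.0 in KO clones. Tuba3a, an alpha tubulin of the testis, was at 63.1, 41.4 and 33.9 CPM in WT clones and 88.3, 160 and 122 in KO clones, the highest of these levels being in KO clone 2. Tuba3a and Tuba3b are close copies, as are Pramel6 and Pramel7, so reads can be shared or lost between the members of each pair and their values are uncertain. Dnajc5g, a J-domain co-chaperone of the testis, rose from 1.12, 1.01 and 0.457 CPM to 4.85, 5.86 and 5.12 (2.61 ± 0.30, edgeR adjusted p = 0.00626). Not every such gene rose, since Rbm46, an RNA-binding protein needed for entry into meiosis, was at 1.80, 2.15 and 2.48 CPM in WT and 0.852, 0.697 and 0.927 in KO clones (-1.38 ± 0.24, edgeR adjusted p = 0.0212).

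Imprinted genes were called in both directions. Of 43 tested, H19 and Mest were called higher and Grb10, Cdkn1c, Magel2 and Igf2 lower (14% of the list, beside 1.47% of all genes tested), and Zrsr1 rose by less than 2-fold. The median log2 fold change of the list was 0.205, beside 0.0081 over all tested genes of these autosomes. With WT clone 2, WT clone 3 or KO clone 2 left out, 0, 2 and 9 were called, beside 0, 10 and 489 of all 13795 genes tested.

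H19 is a non-coding RNA read from the maternal copy, next to the paternally expressed growth factor gene Igf2, on chromosome 7 (H19 at 142575529 to 142578143, Igf2 at 142650766 to 142666816, both minus strand). H19 was at 24.7, 13.8 and 23 CPM in WT and 172, 120 and 218 in KO clones, a separation of more than 4 times between the nearest clones, with a log2 fold change of 3.05 ± 0.27 (edgeR adjusted p = 0.00489). Igf2 went the other way, from 1.56, 1.76 and 2.54 CPM to 0.147, 0.553 and 0.409, at low counts (-2.37 ± 0.42, edgeR adjusted p = 0.0224). The exons of Igf2 share 64.5% of their bases with other genes, among them the antisense gene Igf2os, which was called lower too, so the reads of these neighbours cannot be told apart.

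Mest, a paternally expressed gene on chromosome 6 that encodes a hydrolase-like protein, was at 57.8, 27.8 and 42.7 CPM in WT and 167, 206 and 190 in KO clones (2.13 ± 0.23, edgeR adjusted p = 0.00588), with 23.1% of its exon bases shared with Copg2. Grb10, an adaptor that damps insulin receptor signalling and lies on chromosome 11 at 11930508 to 12038683 (minus strand), stood at 158, 221 and 240 CPM in WT clones and at 30.7, 53.4 and 33.9 in KO clones. The KO values of Grb10 were below every WT value by more than 2 times, and its log2 fold change was -2.39 ± 0.23 (edgeR adjusted p = 0.0057). Leaving out a clone kept this adjusted p under 0.05 in 5 of 6 fits, the exception being WT clone 2. Cdkn1c, a maternally expressed inhibitor of the cell cycle, was at 39.6, 53.7 and 61.4 CPM in WT and 10.7, 23.2 and 15.1 in KO clones (-1.65 ± 0.27, edgeR adjusted p = 0.0171), and 30.7% of its exon bases are shared with another gene.

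**Figure D3:**
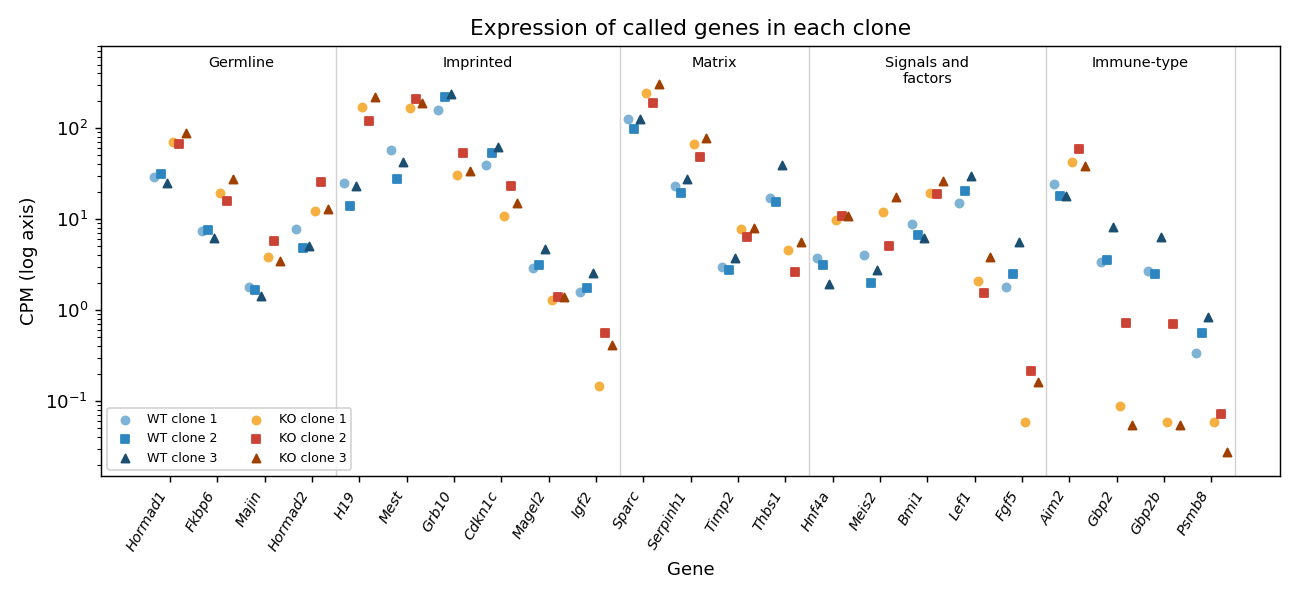
CPM on a log axis (vertical) of called genes from several groups (horizontal axis) in the 3 WT clones (blue) and the 3 KO clones (orange to red), 1 point per library. WT and KO clones do not overlap for any gene plotted, and the KO clone 2 squares of Gbp2 and Gbp2b lie above the other KO clones.

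Genes of the extracellular matrix also moved both ways. Of 25 tested, 3 were called higher (Sparc, Serpinh1 and Timp2) and 2 lower (Thbs1 and Col3a1), 20% of the list beside 1.47% of all genes tested. Col5a1 and Spp1 rose by less than 2-fold, and the median log2 fold change was 0.158. Col3a1 had 4, 9 and 17 raw counts in WT clones and 1 in each KO clone, too few to size its change. Sparc, a secreted collagen-binding glycoprotein made in quantity by parietal endoderm, was at 127, 98.5 and 126 CPM in WT and 246, 187 and 305 in KO clones (1.07 ± 0.17, edgeR adjusted p = 0.0169). Serpinh1, the collagen chaperone HSP47, stood at 23, 19.4 and 27.6 CPM in WT clones and at 67.1, 48.1 and 77.1 in KO clones (1.46 ± 0.19, edgeR adjusted p = 0.00832). Both had their lowest KO value in KO clone 2. With WT clone 2, WT clone 3 or KO clone 2 left out, 0, 0 and 7 of the list were called, beside 0, 10 and 489 of all 13795 genes tested. Thbs1, which encodes the adhesive glycoprotein thrombospondin-1, fell from 16.9, 15.5 and 39.3 CPM to 4.61, 2.60 and 5.56 (-2.50 ± 0.41, edgeR adjusted p = 0.0174). Its highest value, in WT clone 3, was more than 2 times that of the other WT clones, and it was past the threshold in 1 of the 6 fits that left out a clone.

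Of 17 genes of the contractile actin cytoskeleton, Acta2 and Actc1 were called lower and 0 higher (11.8%, beside 1.47% of all genes tested), although the median log2 fold change of the list was 0.055 and Tagln2 rose by less than 2-fold. Acta2, smooth muscle alpha actin, was at 8.95, 4.19 and 11.5 CPM in WT clones and 0.352, 0.288 and 0.654 in KO clones (-4.25 ± 0.46, edgeR adjusted p = 0.00588). Actc1, cardiac alpha actin, had 11, 10 and 13 raw counts in WT and 3, 0 and 0 in KO clones, too few to size its change. Only exact matches to the CArG box, the binding motif of serum response factor, were searched (CC, a run of A or T, then GG). Forms with a base off this pattern were not counted, so a gene without a match, such as Acta2, may still hold one. The promoter of Actc1 is shown because it was the only one of the called genes with a promoter in the table to hold an exact match (capitals), at chr2:114052876-114053125 on the minus strand (RefSeq, GRCm38.p6).
Actc1: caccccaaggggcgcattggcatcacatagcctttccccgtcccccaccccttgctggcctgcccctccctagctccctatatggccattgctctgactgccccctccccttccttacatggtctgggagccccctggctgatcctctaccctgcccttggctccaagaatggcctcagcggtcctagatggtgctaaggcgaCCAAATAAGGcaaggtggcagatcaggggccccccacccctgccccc
The CArG box was searched on both strands and was in 1.4% of all 27025 promoters and 1.11% of those of tested genes, in 0 of 83 of the genes called higher and in 1 of 59 of those called lower (1.69%). TATAAA was in 14.5% of the promoters of genes called higher and 15.3% of those lower, beside 13% of all promoters and 7.46% of those of the tested genes on these autosomes. A kappaB site, the motif bound by NF-κB, was in 6.02% and 8.47% beside 7.86% of all promoters and 9.71% of tested genes, and a CpG ratio of observed over expected of at least 0.6 in 42.2% and 39% beside 34.5% and 58.1%. TGACGTCA was in 0 of 83 and 1 of 59 promoters, and CTTTGAT in 0 of both, beside 1.62% and 3.23% of all promoters and 2.67% and 2.43% of those of tested genes.

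Genes of signalling between cells gave a mixed picture. Of 33 Wnt, Nodal and BMP genes tested, Cdx1 was called higher and Lef1 and Wnt3 lower (9.09%, beside 1.47% of all genes tested), and Sfrp2 and Fzd7 fell by less than 2-fold. Lef1, a transcription factor at the end of the Wnt pathway, was at 15.2, 20.5 and 29.6 CPM in WT and 2.09, 1.54 and 3.87 in KO clones (-3.13 ± 0.36, edgeR adjusted p = 0.00626), with 13.7% of its exon bases shared with another gene. Notum, a secreted enzyme that inactivates Wnt proteins, was called lower at the edge of the threshold (49.2, 36.8 and 28.0 CPM in WT and 19.9, 14.8 and 22.2 in KO clones), and lost its call in each of the 6 fits that left out a clone. The FGF family of ligands had 14 members tested by symbol, of which Fgf5 and Fgf15 were called lower and Fgf3 higher (21.4%, beside 1.47% of all genes tested). Symbol families were looked at further only with at least 3 called members, which 6 of 110 had. The share of a small family is therefore high by selection, here and below.

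Fgf5, a marker of the post-implantation epiblast, was at 1.80, 2.50 and 5.64 CPM in WT clones and 0.0588, 0.216 and 0.164 in KO clones (-4.43 ± 0.57, edgeR adjusted p = 0.00832). Fgf15 stood at 11.3, 14.2 and 14.6 CPM in WT and 6.88, 7.16 and 5.26 in KO clones, while Fgf3 stood at 1.12, 1.30 and 1.34 and at 2.97, 2.21 and 3.90. Klb, the co-receptor for endocrine FGFs, was higher in KO clones at 3.52, 1.61 and 5.04 CPM against 0.918, 0.650 and 0.391, with its lowest KO value in KO clone 2 (2.37 ± 0.47, edgeR adjusted p = 0.0322).

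Of 15 semaphorins, which steer axons and migrating cells through plexin receptors, Sema3e, Sema6a and Sema3c were called lower and Sema5b higher (26.7%, beside 1.47% of all genes tested). This family too was selected for its called members, so the share does not show that semaphorins stand out. Sema3e was at 20.4, 19.15 and 25.5 CPM in WT and 12, 7.11 and 7.11 in KO clones (-1.31 ± 0.22, edgeR adjusted p = 0.0191). Sema6a fell from 4.46, 7.28 and 13.6 CPM to 1.62, 0.481 and 1.42, again with the highest WT value in WT clone 3. Sema5b went the other way, from 6.63, 4.23 and 2.87 CPM to 12.3, 8.60 and 15.3 (1.40 ± 0.31, edgeR adjusted p = 0.0451). In the Reactome pathway of axon guidance 5 of 169 genes tested were called, all lower (2.96%, beside 1.47% of all genes tested in both directions). These were Sema3e, Sema6a, Epha1, Efna5 and Col3a1, of which Epha1 and Efna5 are a receptor and a ligand of the ephrin system. The pathway was named for having at least 3 called members, and it counts Sema3e and Sema6a again, so its share is high by selection too. Without WT clone 2 or WT clone 3 no semaphorin was called, and without KO clone 2 there were 3, beside 489 of all 13795 genes tested.

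The primitive endoderm is the layer that forms the yolk sac, and mESC cultures can also give rise to it. Some genes of the endoderm list, picked after their values were seen, separated KO clones 1 and 3 from KO clone 2. Gata6, a GATA factor that specifies this layer, was at 0.544, 0.715 and 0.815 CPM in WT clones and at 6.58, 0.649 and 10.4 in KO clones 1 to 3. Sox17, a further factor of the layer, was at 0.238, 0.293 and 0.261 CPM in WT clones and at 3.55, 0.312 and 3.62 in the KO clones. In both genes KO clones 1 and 3 stood above every WT clone while KO clone 2 lay near the WT range. The same order held for Pdgfra, a receptor of this layer (1.5, 1.53 and 1.7 CPM in WT and 10.7, 1.49 and 15.9 in KO clones), and for Cubn, a receptor for endocytosis in it (4.63, 6.54 and 5.06 against 57.7, 6.13 and 107). Other members of the list did not have this order. Cldn6 was at 41.2, 58.7 and 70.9 CPM in WT clones and at 41.3, 32.3 and 31.4 in KO clones. Fgfr4 and Apoe had their highest value in KO clone 2 (4.57 and 167 CPM). Apob, Foxa1 and Trf, on autosomes set aside, did not have it either.

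Of the 12 endoderm genes tested on these autosomes only Hnf4a was called with all clones (8.33%, beside 1.47% of all genes tested). With KO clone 2 left out 8 were called, beside 489 of all 13795 genes tested. KO clone 2 was already seen to lack the pattern, so this rise is a description only. The median log2 fold change of the 12 was 2.02, beside 0.0081 over all tested genes. Ttr and Afp, markers of later visceral endoderm, had at most 5 raw counts in any clone. The summed level of the list mixed this pattern with abundant genes that did not have it. Apoe and the X-linked Rhox5 were highest in KO clone 2. Rhox5 was at 57.4 to 98.8 CPM in WT clones and at 29.5, 236 and 32.3 in KO clones. Lrp2, also abundant, was at 110, 106 and 143 CPM in WT clones and at 157, 73.7 and 210 in KO clones. Its KO clones 1 and 3 were thus above every WT clone. On the autosomes set aside, Gata4 and Dab2 had the same order of clones, at 10.4, 1.75 and 13.8 CPM and 42.8, 8.20 and 74.0 CPM in the KO clones against at most 2.32 and 9.0 in a WT clone. These endoderm values move with KO clones 1 and 3, and their part in the genes called higher was not tested. Among the 112 genes called higher KO clone 2 had the lowest KO value in 39 (34.8%, beside 39.0% of all genes tested). It had the highest in 53 (47.3%, beside 40.8%), while KO clone 1 had the lowest in 56. Genes near the WT level in KO clone 2, such as Gata6, Sox17 and Cubn, were not called with all clones. The call itself thus tended to keep such genes out of the 112, so these shares cannot show what part the endoderm pattern had.

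Of the transcription factors on the lineage marker lists, those called higher came from different lists. Hnf4a, a nuclear receptor of liver and visceral endoderm, was at 3.71, 3.12 and 1.96 CPM in WT and 9.84, 10.8 and 10.7 in KO clones (1.84 ± 0.22, edgeR adjusted p = 0.00712). Meis2, a homeodomain factor of the limb and nervous system, was at 3.98, 1.98 and 2.74 CPM in WT and at 11.8, 5.02 and 17.6 in KO clones, which differed among themselves by more than 3 times (1.98 ± 0.44, edgeR adjusted p = 0.0441). Tfap2a, a factor of trophoblast and neural crest, and Cdx1, a caudal factor of the posterior embryo, were called higher at under 4 CPM. Bmi1, a subunit of Polycomb repressive complex 1 that was picked after its values were seen, rose from 8.88, 6.76 and 6.13 CPM to 19.2, 18.8 and 26.0 (1.55 ± 0.18, edgeR adjusted p = 0.00667).

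Of 29 interferon and antigen presentation genes tested, Psmb8 and Gbp2 were called lower and 0 higher (6.9%, beside 1.47% of all genes tested). The median log2 fold change of the list was -0.02. Psmb8 had only 10, 17 and 26 raw counts in WT clones and 2, 3 and 1 in KO clones. Gbp2, a guanylate-binding protein of the interferon response, was at 3.37, 3.51 and 8.25 CPM in WT clones and 0.0881, 0.721 and 0.0545 in KO clones, and its close copy Gbp2b at 2.69, 2.50 and 6.36 and at 0.0588, 0.697 and 0.0545, so the reads of this pair may be shared. KO clone 2 had 30 and 29 raw counts of the pair and the other KO clones 2 or 3. Aim2, a sensor of cytosolic DNA picked after its values were seen, was higher in KO clones, at 42.4, 59.5 and 37.9 CPM against 24.5, 18.1 and 17.9 (1.21 ± 0.19, edgeR adjusted p = 0.0151).

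Car2, carbonic anhydrase 2, which interconverts carbon dioxide and bicarbonate, stood at 118, 132 and 220 CPM in WT and 43.9, 67.1 and 59.3 in KO clones (-1.46 ± 0.24, edgeR adjusted p = 0.019). Its neighbour on chromosome 3, Car3, was called lower as well (4.22, 4.0 and 6.95 against 0.970, 2.50 and 1.42 CPM). Among 202 solute carriers tested, 4 were called higher (Slc1a1, Slc44a3, Slc34a2 and Slc41a3) and Slc23a1 lower, 2.48% of the family beside 1.47% of all genes tested. Slc1a1, a glutamate and cysteine transporter, was at 5.95, 5.17 and 4.08 CPM in WT and 16.3, 20.9 and 18.2 in KO clones (1.87 ± 0.17, edgeR adjusted p = 0.00489), with 31.9% of its exon bases shared with another gene. Slc23a1, a vitamin C transporter, was at 15.9, 24.1 and 25.3 CPM in WT and 8.31, 11 and 5.15 in KO clones. Zinc finger genes with the symbol Zfp, many of which bind transposable elements, numbered 285. Of these 3 were called higher (Zfp951, Zfp9 and Zfp264, the last annotated as a pseudogene) and 1 lower (Zfp608), 1.4% beside 1.47% of all genes. Without the fold threshold 12 were lower and 4 higher, beside 229 and 295 of all 13795 genes tested, and the median log2 fold change of the family was -0.133.

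**Figure D4:**
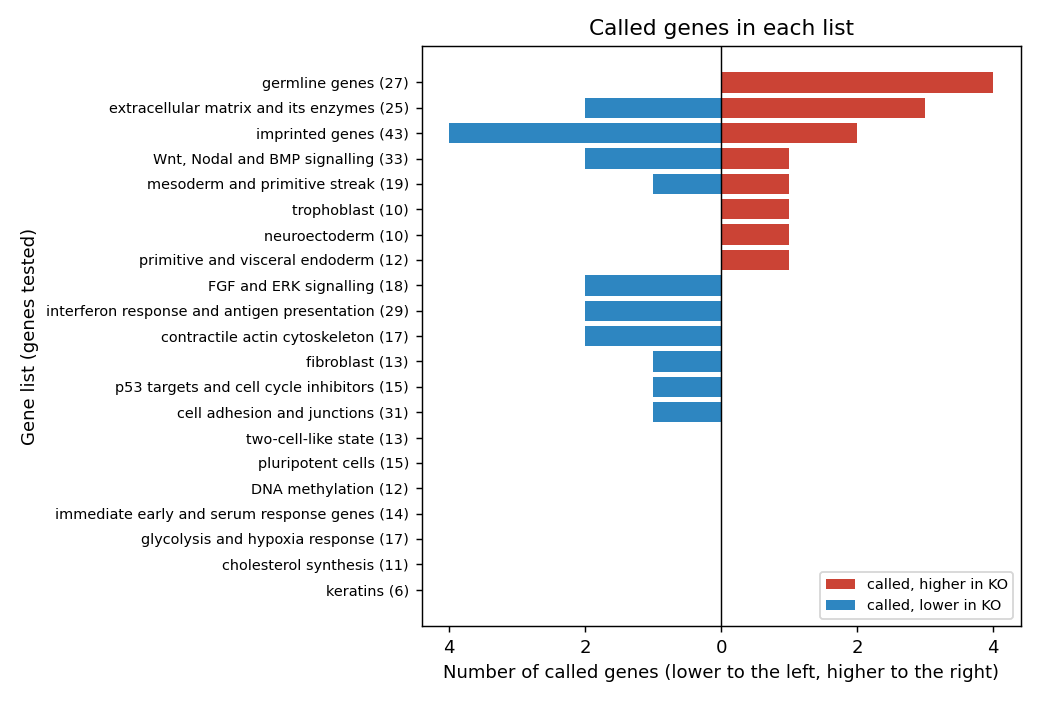
Number of genes called higher (bars to the right) and lower (bars to the left) in KO clones (horizontal axis) in each gene list, with the number of list members tested in brackets (vertical axis). Imprinted genes have 2 called higher and 4 lower, germline genes 4 higher and 0 lower, and the pluripotent cell list has 0.

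In other groups few genes were called or none. The lists for keratins, cholesterol synthesis, immediate early genes, glycolysis and hypoxia, DNA methylation, pluripotent cells and the two-cell-like state had 0 called members (88 genes tested, 20 at an unadjusted p under 0.05 by edgeR, 1 called by DESeq2). Tpi1, Bnip3 and Pgam1 of the glycolysis and hypoxia list and Dnmt3b of the DNA methylation list, the gene of a de novo DNA methyltransferase, fell by less than 2-fold (Dnmt3b at 579.0, 686.2 and 876.1 CPM in WT and 354.3, 417.1 and 370.0 in KO clones, log2 fold change -0.91 ± 0.14, edgeR adjusted p = 0.0147). Among the 31 adhesion and junction genes only Dsc2 was called, as lower, and Cdh2 fell by less than 2-fold. The p53 and cell cycle inhibitor list had Cdkn1c alone of 15. Among Reactome pathways, none of the genes of mRNA splicing (67 tested), DNA repair (88), translation (88) or the citric acid cycle and respiratory chain (75) was called by edgeR (51 at an unadjusted p under 0.05, 1 called by DESeq2), and 2 of 308 cell cycle genes were (0.649%). Extracellular matrix organization had 7 of 115 called (6.09%, 5 of them higher), beside 1.47% of all genes tested. Apoptosis had 4 of 89, all lower (4.49%), namely Psmb8 (at few counts), Ticam2, Cflar and Bcl2. Both are among the 15 of 40 pathways with at least 3 called members and were named for it, so their shares are high by selection. Signaling by PDGF (6.6%) and by FGFR2 (5.56%), called in both directions, had like shares. The 40 pathways looked at hold 2646 of the tested genes and 46 of the 203 called.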

How the data were processed

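RNA-seq of 6 mESC libraries (3 WT and 3 KO clones) was used. Per the paper's methods and the submitters' processing notes, the authors trimmed reads (Trim Galore 0.6.6), aligned them to GRCm38 with Ensembl annotation (STAR 2.7.8), counted uniquely mapped reads on exons (featureCounts of Subread 2.0.1) and deposited whole-number counts. The setting for strand is not given in the sources used here, so overlapping genes may share reads. The authors' normalized table (DESeq2 1.38.3) was not used, nor were 12 columns of embryoid body libraries, whose clone codes the labels do not pair with a genotype.

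The 21843 genes that reached 10 counts when the 6 libraries were summed were fitted with edgeR 4.0.16 in R 4.3.3 (TMM scaling, quasi-likelihood test, genotype as the only term), with Benjamini-Hochberg adjustment over all of them. Positions came from GENCODE vM21 (55227 of 55487 identifiers matched). Only genes of 12 autosomes are reported. The fit took each clone as a separate cell line, so the p-values measure the spread between clones. The paper describes the clones of each genotype as independent. The labels do not say whether some KO clones had a common origin after the editing, and this was not tested. If some did, the p-values rest on fewer separate lines than the fit assumed. Before use the test was checked on simulated counts. DESeq2 1.42.0, apeglm 1.24.0, other filters and scalings, a correction by 10 Mb window and leaving out each clone were alternatives.

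Genes named were the 15 largest called increases and decreases averaging 50 counts or more and not overlapping between genotypes, the 8 most abundant called genes in each direction, called genes of 21 gene lists, and called genes of symbol families (at least 10 tested) with at least 3 called. Those named outside this rule are said to be so, or are members of a pathway or pair given in full, or are endoderm markers named after their values were seen. Pathways were 40 of the mouse Reactome table shipped with an R package. The members and lists were chosen with earlier results of these data known. Same-numbered WT and KO clones did not deviate together (correlations of -0.158, 3e-04 and -0.0227), so no pairing was used.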

Additional observations from a re-analysis of the deposited data

How the results depend on the processing

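In place of 112 genes called higher and 91 lower, 295 and 229 passed with no fold threshold, 58 and 26 with KO clones 1 and 3 summed as 1 sample, and 201 were higher by the DESeq2 Wald test (121 lower). Over the 6 fits that left out 1 clone the counts ranged from 0 to 268 higher and from 0 to 221 lower, with both lowest counts without WT clone 2. The replicate number as a block gave 75 higher and 64 lower, 126 of these 139 also called without the block, but the clones share only a number. An offset for each 10 Mb window gave 110 and 90 (187 shared with the main calls), DESeq2 size factors 109 and 93, and TMM on the analysed autosomes 116 and 89. Of 78 named genes, 72 kept their call with the window offset, 37 with KO clones 1 and 3 summed, 10 without WT clone 3 and 0 without WT clone 2. In any alternative 0 changed direction. The called genes did not overlap between WT and KO clones, so leaving out or summing clones could hardly reverse them, and this 0 carries little information. The largest chromosome median in a KO clone was 0.0544 over genes averaging 10 counts or more, in place of 0.0586. The cause of these differences was not tested. At 3 clones per genotype, genes with few counts carried the least precise values: 12 of the 203 called had a mean count under 10, and 3 had 0 counts in every clone of 1 genotype.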
